A study of Mus musculus with 463 samples.

Results

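Hox genes encode homeodomain transcription factors that are arrayed in 4 clusters, Hoxa to Hoxd, and that are numbered by their paralogue group along each cluster. The members described here are the genes whose symbol is Hoxa, Hoxb, Hoxc or Hoxd followed by a number: 39 of the 40824 mouse genes in the count tables, with 11 in cluster A, 10 in B, 9 in C and 9 in D. In vertebrate embryos low-numbered genes are transcribed earlier and further forward, and high-numbered genes later and further back, so that the set of active genes gives a position along the body axis. Retinoic acid signalling and Cdx factors act upstream, Polycomb complexes keep the clusters silent where they are not used, and Pbx, Meis and Pknox proteins bind DNA together with Hox proteins. The pancreas arises from a ventral and a dorsal bud of the foregut endoderm, and the gut mesenchyme around both buds is a known site of Hox transcription.

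The study compared the ventral and the dorsal rudiment of the mouse pancreas as progenitors become endocrine cells, by RNA sequencing of sorted populations and of single cells. The 16 bulk libraries fall into 8 groups of 2, each from a ventral and a dorsal side: Pdx1-GFP+ cells at E10.5 (E, embryonic day), Ngn3-GFP-high cells at E14.5, Ngn3-GFP-low cells at E14.5, and Ins1-RFP+ cells at E17.5. The 447 single cells comprise 44 ventral and 31 dorsal Pdx1-GFP+ cells at E9.5. At E10.5 they comprise 59 ventral and 27 dorsal Pdx1-GFP+ cells, 39 and 28 Pdx1-GFP-high cells, and 39 and 40 Pdx1-GFP-low cells. They also hold 54 Liv2+ and 59 Liv2- cells from the ventral Pdx1-GFP-low gate, 23 Liv2+ cells of the liver bud, and 4 liver cells at E15.5 sorted as tdTomato+ from Pdx1-Cre, ROSA26-tdTomato embryos. Liv2 is a surface antigen of hepatoblasts. The reporters report Pdx1, Neurog3 (Ngn3) and insulin promoter activity, so a gate selects cells that have made the fluorescent protein and not a lineage, and no group is an untreated wild type without a reporter.

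Gene-assigned reads numbered 8779418 to 24551520 per bulk library and 201191 to 1738015 per single cell, with a median of 1064163. The 6 epithelial markers were read in each bulk group, at 1590 to 3892 CPM in sum (CPM are counts scaled to library size). Cells of 1 group with the same set number in the label were summed, which gave 37 sets of 3 or more cells in 11 groups. What a bulk library or a set number stands for (embryos, litters, plates) is not given in the labels, so that p-values measure only the spread between these samples. Among single cells, 9 had 4 or more of 12 mesenchyme markers at 10 CPM or more, and results that touch them are given with and without them. For 25 of the 44 ventral E9.5 cells the labels carry a growth protocol of a human stem cell line, while title, organism and sort name mouse ventral cells; they were used as titled. Bulk libraries cannot tell fewer cells that transcribe a gene from less RNA per cell.

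The family shares the homeobox, and the stretch that codes for the DNA-recognition helix is nearly the same in all members, which matters for assigning short reads. Transcripts were compared as GENCODE gives them on GRCm38, using for each gene only the longest protein-coding transcript that codes for this helix. Among these transcripts the longest run of identical bases between members was 52 bases, between Hoxa6 and Hoxb4. The next was 50 bases, between Hoxb9 and Hoxc9. Other transcripts of overlapping genes were not compared and could share longer runs. Reads inside such runs could be split between genes by the authors' counting. Several members also overlap other genes. Hoxa3 (chr6:52169062-52213336, minus strand) spans Hoxa4, Hoxa5 and Hoxa6 on its own strand and Hoxaas2 and Hoxaas3 on the other. Hoxc5 (chr15:102967443-103017429, plus strand) spans Hoxc6, Hoxc8 and Hoxc9 and overlaps part of Hoxc10. Hoxa2 overlaps Gm28308 and Hoxa9 overlaps Mir196b, each on the same strand. The bulk kit marks the strand, but the strand setting of the counting is not given in the sources used here, so values of Hoxa2 to Hoxa7, Hoxa9, Hoxb2, Hoxb3, Hoxb5, Hoxb6, Hoxc5 and Hoxd8 may hold reads of a neighbour or lack reads shared with it. Hoxa10, Hoxb9, Hoxb13 and Hoxc4 overlap no counted gene.

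Promoter windows of 250 bases before to 50 bases after the start were found for 22 of the 39 members in RefSeq (build GRCm38.p6), in 24 windows. Those of Hoxa2, Hoxc4 and Hoxd8 are shown as examples. From E10.5 to E14.5 Ngn3-low cells of the dorsal side Hoxa2 and Hoxc4 were lower and Hoxd8 was higher. In ventral Ngn3-high cells each of these genes was lower than in ventral Ngn3-low cells. Capitals mark matches, on either strand, to AGGTCA (a retinoic acid receptor half-site), TGACAG (a Meis core), TGATNNAT (a Hox and Pbx composite), TAATTA (a homeodomain core) and CCAAT (the CCAAT box).
Hoxa2 (chr6:52164782-52165081, minus strand): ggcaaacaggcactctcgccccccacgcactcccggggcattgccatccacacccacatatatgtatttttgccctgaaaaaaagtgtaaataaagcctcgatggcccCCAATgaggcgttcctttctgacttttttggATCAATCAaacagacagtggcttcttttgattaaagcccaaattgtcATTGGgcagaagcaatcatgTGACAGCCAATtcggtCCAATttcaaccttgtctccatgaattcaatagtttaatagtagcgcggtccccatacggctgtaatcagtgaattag
Hoxc4 (chr15:103034145-103034444, plus strand): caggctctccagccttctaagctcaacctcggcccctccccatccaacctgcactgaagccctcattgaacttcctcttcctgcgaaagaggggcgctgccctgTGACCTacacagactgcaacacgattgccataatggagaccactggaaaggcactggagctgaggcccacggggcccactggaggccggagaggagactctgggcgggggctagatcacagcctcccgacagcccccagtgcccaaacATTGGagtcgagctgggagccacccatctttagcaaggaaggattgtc
Hoxd8 (chr2:74704365-74704664, plus strand): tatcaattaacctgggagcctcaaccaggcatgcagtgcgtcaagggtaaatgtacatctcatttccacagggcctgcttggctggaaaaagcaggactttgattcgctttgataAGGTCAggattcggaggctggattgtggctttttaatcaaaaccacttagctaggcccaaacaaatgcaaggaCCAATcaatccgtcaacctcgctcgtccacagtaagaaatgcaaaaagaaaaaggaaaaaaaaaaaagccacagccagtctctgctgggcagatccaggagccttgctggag
The Hoxa2 window held the Meis core, the Hox and Pbx composite and the CCAAT box, and its Meis core abuts a CCAAT box. The windows of Hoxc4 and Hoxd8 each held the retinoic acid receptor half-site and the CCAAT box. That half-site was in 7 of the 24 Hox windows and in 16.3% of all 32851 mouse windows. The Meis core was in 2 Hox windows and 19.2% of all, the Hox and Pbx composite in 4 and 8.85%, the homeodomain core in 2 and 5.29%, and the CCAAT box in 15 and 37.4%. These are matches of letters only.

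Hox transcripts were scarce in all bulk groups. In the authors' deposited table of pooled RPKM, which are reads scaled to gene length and library size, 12 of the 39 members reached 1 RPKM in some group and 4 reached 2 RPKM, and 9 of those 12 had their highest value in the dorsal E10.5 libraries. The highest were Hoxa3 at 0.96 RPKM in the ventral and 4.40 RPKM in the dorsal E10.5 group, Hoxc4 at 1.65 and 4.11 RPKM, Hoxb3 at 1.68 and 2.47 RPKM, and Hoxa5 at 1.38 and 2.01 RPKM. Clusters A and B supplied most of the members that could be tested. After a filter on low counts, 21 of 39 members were tested among 17690 genes, with 8 in cluster A, 9 in B, and 2 each in C (Hoxc4, Hoxc5) and D (Hoxd8, Hoxd9). The other 18 had 1 to 55 reads over all 16 libraries. A member that passed the filter through the group in which it is high was bound to differ, so counts below describe the tested members and not the family.

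**Figure D1:**
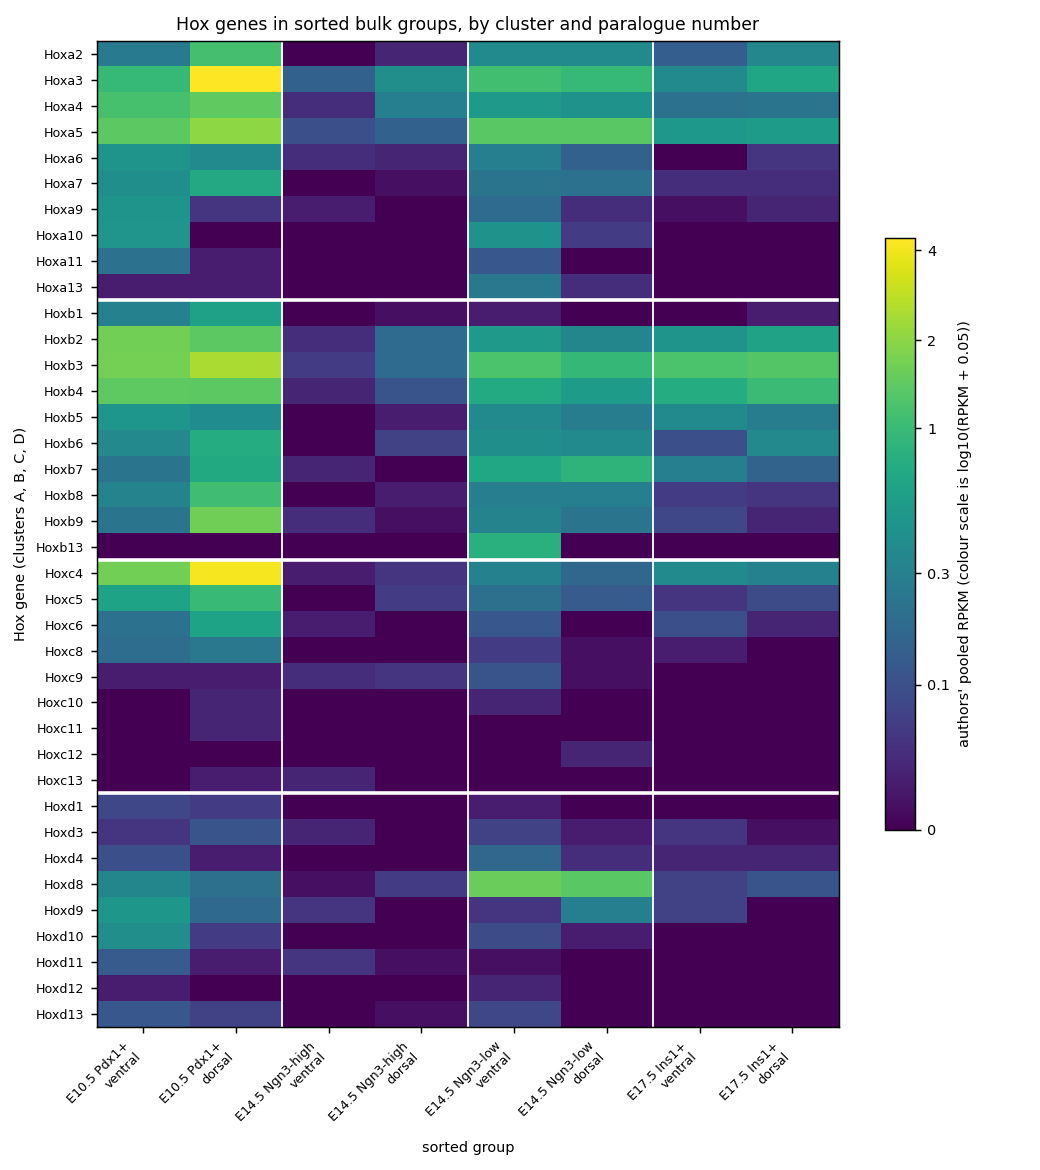
Authors' deposited pooled RPKM of Hox genes (rows, by cluster and paralogue number) in the 8 bulk groups (columns), coloured by log10(RPKM + 0.05). Values concentrate in paralogues 1 to 5 at E10.5, the Ngn3-high columns are darkest (lowest), and Hoxb13 stands alone in the ventral Ngn3-low column at 0.82 RPKM.

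By paralogue number, members 1 to 4 took the most reads at E10.5. They summed to 28.3 and 22.2 CPM (unscaled by TMM, as are all sums) in the 2 ventral libraries, and to 50.5 and 38.3 CPM in the 2 dorsal libraries. Members 5 to 8 summed to 13.4 and 8.24 CPM in ventral and to 24.5 and 9.82 in dorsal libraries, and members 9 to 13 to 8.69 and 4.71 in ventral and to 9.91 and 1.16 in dorsal libraries. The dorsal libraries were higher than both ventral ones for members 1 to 4, while the sides overlapped for members 9 to 13. In Ngn3-high cells at E14.5 members 1 to 4 summed to 1.10 and 0.950 CPM in ventral and to 3.01 and 3.77 in dorsal libraries. In Ngn3-low cells they summed to 20.4 and 6.99 in ventral and to 12.9 and 8.00 in dorsal libraries, and in E17.5 Ins1+ cells to 13.1 and 5.89 and to 15.1 and 8.25.

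The first comparison set the ventral against the dorsal bud at E10.5. Anterior members of cluster A, Hoxa2 and Hoxa3, were lower in ventral than in dorsal Pdx1+ cells, and so was the posterior member Hoxb9, while posterior members of cluster A, Hoxa9 and Hoxa10, were higher. Of the 21 tested members 5 passed (edgeR quasi-likelihood test, Benjamini-Hochberg adjusted p below 0.05), 2 higher and 3 lower in ventral cells. Of all 17690 genes 24.7% passed, 1810 of them higher and 2564 lower. The tested Hox genes thus passed about as often as all genes did. The median log2 fold change of the 21 members was -0.74, against -0.03 over all genes, and it is the same with Hoxa10 at its bound.

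Hoxa3, which in mouse patterns the third pharyngeal pouch, had 3.28 and 1.50 CPM in ventral libraries, against 11.0 and 10.54 CPM in dorsal libraries. Both ventral libraries lay below both dorsal ones, and the log2 fold change was -2.19 ± 0.55 (SE, n = 2 each, adjusted p = 0.0087). Hoxa2, which specifies the second pharyngeal arch, had 0.616 and 0.249 CPM in ventral libraries, against 2.46 and 1.21 CPM in dorsal ones. The sides did not overlap, and the log2 fold change was -2.10 ± 0.66 (adjusted p = 0.029). Hoxb9, a posterior member, had 0.924 and 0.249 CPM in ventral libraries, against 7.29 and 0.803 CPM in dorsal ones. Its sides overlapped, since the second dorsal library lay below the first ventral one, and its log2 fold change of -2.82 ± 0.88 (adjusted p = 0.030) moved to -0.51 and an adjusted p of 0.81 without the first dorsal library. Without the second ventral library it was -2.11, with an adjusted p of 0.21.

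Hoxa9 had 1.74 and 1.08 CPM in ventral libraries, against 0.321 and 0 CPM in dorsal ones. Its log2 fold change was 3.09 ± 0.89 (adjusted p = 0.019). Hoxa10 had 1.33 and 0.914 CPM in ventral libraries and no read in dorsal libraries. The sides were separate for both genes, and Hoxa10 was at least 7.23-fold higher in ventral cells (adjusted p = 0.0062), counting the dorsal group at a floor of 3 reads. Neither gene had a read in any of the 447 single cells, which include 59 ventral Pdx1+ cells at E10.5. In mouse Hoxa9 and Hoxa10 are best known from blood progenitors and from the limb and the reproductive tract. Their neighbour Hoxa11 was too low to be tested, with 0.410 and 0.499 CPM in ventral libraries, against 0.107 and 0 CPM in dorsal ones.

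Several neighbours did not pass. Hoxc4 had 2.77 and 3.57 CPM in ventral libraries, against 9.21 and 7.33 CPM in dorsal ones; the log2 fold change was -1.37 ± 0.50 (adjusted p = 0.056). Hoxb8 had 0.821 and 0.748 CPM in ventral libraries, against 4.29 and 1.21 CPM in dorsal ones (-1.79 ± 0.71, adjusted p = 0.081). Their sides did not overlap, and neither passed. On the log2 scale Hoxb2, Hoxb3, Hoxb4 and Hoxa5 had fold changes of 0.23, -0.59, 0.00 and -0.56. Hoxb2 had 4.82 and 4.82 CPM in ventral libraries, against 5.14 and 3.11 CPM in dorsal ones, with overlapping sides.

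The count of 5 rested on few reads. DESeq2 called 1 of these members, Hoxa3, with 3 of 21 left without an adjusted p, and leaving out 1 library at a time gave 2 to 5 calls. It was 3 without the first dorsal library and 2 without the second ventral library. Hoxa10 passed in all 4 of these fits, Hoxa3 in 3, and Hoxa2, Hoxa9 and Hoxb9 in 2. Markers of other cells moved with side. The 6 cardiac muscle markers summed to 1171 to 2036 CPM in ventral libraries, against 6.53 to 24.6 CPM in dorsal ones, and all 6 were higher. The 12 mesenchyme markers summed to 591 to 975 CPM in ventral libraries, against 94.7 to 115.5 CPM in dorsal ones, with 6 higher and 1 lower, and Lum was at 0 in dorsal libraries. The 6 mesothelium markers had 3 higher, the 6 hepatoblast markers 5 higher and the 6 neural crest markers 4 lower and 1 higher. The sorting genes were lower in ventral cells, with Pdx1 at an average of 105.9 CPM in ventral libraries, against 240.0 CPM in dorsal ones. The part of these cells in the Hox values was not tested.

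**Figure D2:**
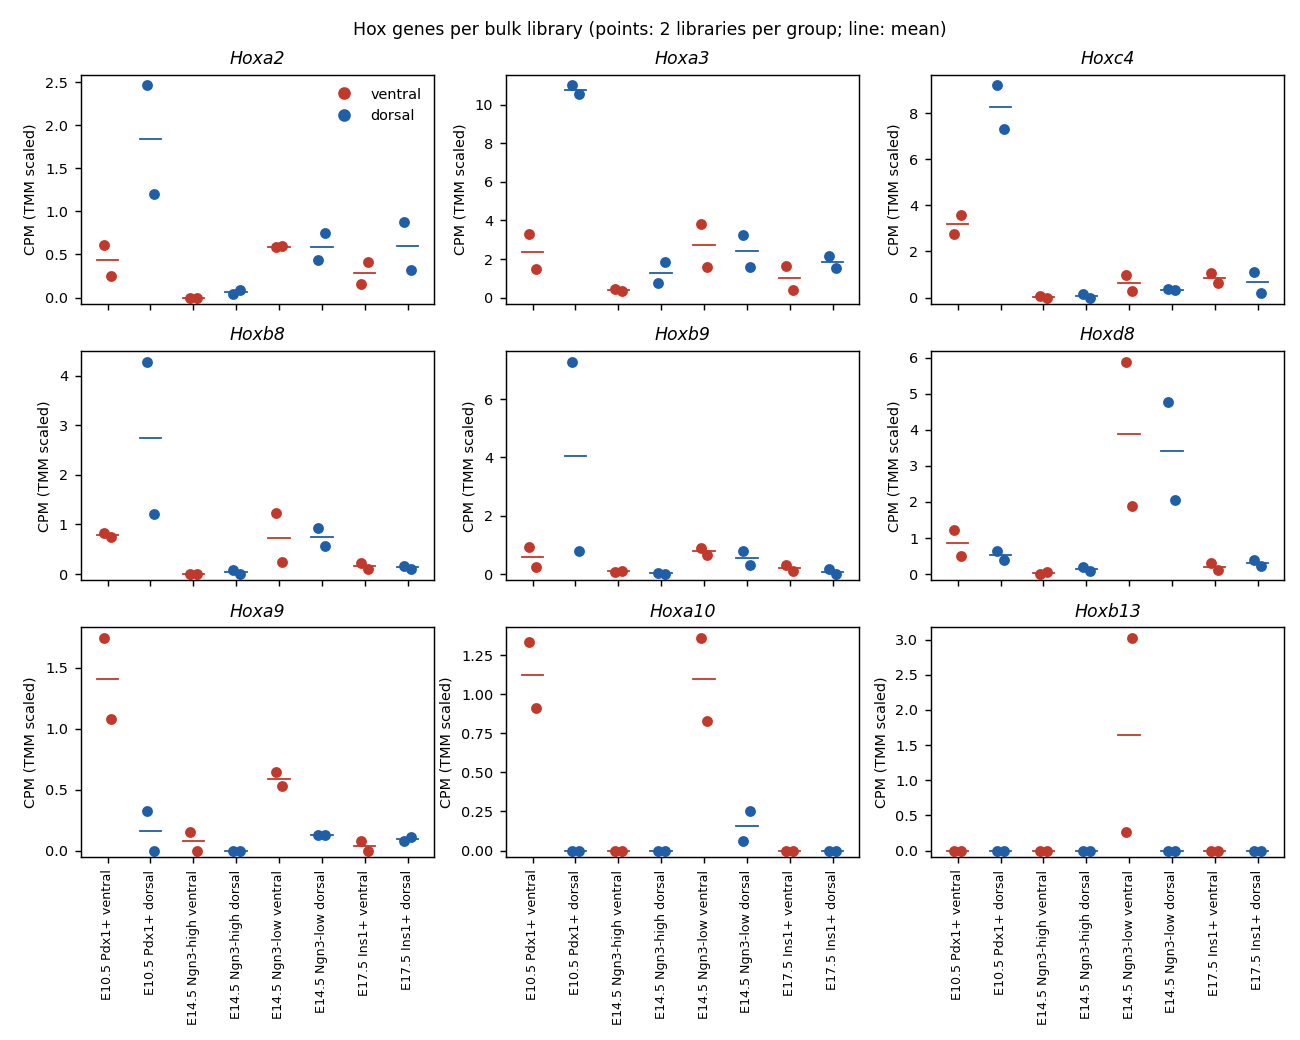
TMM-scaled CPM of 9 Hox genes in each of the 16 bulk libraries, with a point per library and the 8 groups along the x axis, ventral left of dorsal. Hoxa2, Hoxa3 and Hoxc4 are highest in the dorsal E10.5 libraries, Hoxd8 in the Ngn3-low libraries of both sides, and Hoxb9 is high in 1 dorsal library, at 7.29 CPM.

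At E14.5 and E17.5 no tested Hox gene passed between the sides. In Ngn3-high cells, the endocrine progenitors, edgeR called 0 of 21, with 3 at an unadjusted p below 0.05 (Hoxa4, Hoxb2 and Hoxc5, all lower in ventral cells), and DESeq2 called 0, leaving 15 members without an adjusted p. Of all genes 0.537% passed. In Ngn3-low cells, edgeR called 0, with 3 at an unadjusted p below 0.05 (Hoxa9, Hoxa10 and Hoxd9), DESeq2 called 0, again with 15 left out, and 0.017% of all genes passed. In E17.5 Ins1+ cells, the beta cells, edgeR called 0 with 0 at an unadjusted p below 0.05, DESeq2 called 0 with 15 left out, and 0.0283% of all genes passed. Few genes of any kind passed between the sides at these stages.

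In Ngn3-low cells Hoxa10 was again higher in both ventral than in both dorsal libraries, without passing. It had 1.36 and 0.830 CPM in ventral and 0.0619 and 0.251 CPM in dorsal libraries, with a log2 fold change of 2.74 ± 0.75 (adjusted p = 0.76). In Ngn3-high and Ins1+ cells of both sides Hoxa10 had no read. The difference between the ventral-to-dorsal fold changes at E17.5 and at E10.5 was tested for all 21 members. edgeR called 0, with 0 at an unadjusted p below 0.05 and 0 by DESeq2, which left out 13, against 12.7% of all genes, so that a change of the side difference with stage was not shown for any member.

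Hoxb13, the most posterior member of cluster B, is known from the tail bud, prostate and colon. It had 0.259 and 3.02 CPM in the ventral Ngn3-low libraries, from 4 and 51 reads, and no read in the other 14 libraries. It was at least 17.6-fold higher in ventral than in dorsal Ngn3-low cells against a floor of 3 reads, but nearly all reads came from the second library, and it was too low to be tested behind the filter. With no filter edgeR called it, as 1 of 39 members. Hoxa13 was highest in the same library, with 0.130 and 0.948 CPM in ventral and 0 and 0.188 CPM in dorsal Ngn3-low libraries.

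The second question was how Hox genes differ between Ngn3-high endocrine progenitors and the Ngn3-low cells of the same E14.5 pancreas. Hox genes were lower in Ngn3-high cells on both sides and none was higher. On the dorsal side 13 of 21 tested members were lower, against 32.1% of all genes (61.3% in either direction). On the ventral side 18 of 21 were lower, against 32.4% of all genes (61.8% in either direction). The median log2 fold change of the members was -3.18 on the dorsal and -4.13 on the ventral side, or -2.25 and -3.29 with members at 0 reads set at their bound, against -0.01 and 0.00 over all genes. The 2 comparisons share no library, though same-numbered libraries of the sides were not shown to be independent.

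Hoxd8, a middle member of cluster D, had the smallest adjusted p on both sides. On the dorsal side it had 0.204 and 0.0917 CPM in Ngn3-high and 4.77 and 2.07 CPM in Ngn3-low libraries, a log2 fold change of -4.29 ± 0.75 (adjusted p = 1.1e-04). On the ventral side it had 0 and 0.0602 CPM in Ngn3-high and 5.89 and 1.90 CPM in Ngn3-low libraries (-6.52 ± 0.97, adjusted p = 2e-05). The gates were far apart on both sides, and the 2 Ngn3-low libraries of a side differed by more than the sides did.

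Among anterior and middle members, Hoxa5, which in mouse is needed in lung and gut mesenchyme, had 0.327 and 0.183 CPM in dorsal Ngn3-high and 3.10 and 1.75 CPM in dorsal Ngn3-low libraries (-3.09 ± 0.69, adjusted p = 9.6e-04). In ventral libraries Hoxa5 had 0.223 and 0.181 CPM in Ngn3-high and 3.56 and 1.36 CPM in Ngn3-low cells (-3.55 ± 0.74, adjusted p = 5.6e-04). Hoxb3 had 0.613 and 0.642 CPM in dorsal Ngn3-high and 3.47 and 2.25 CPM in dorsal Ngn3-low libraries (-2.18 ± 0.65). In ventral libraries Hoxb3 had 0.223 and 0.181 CPM in Ngn3-high and 5.89 and 1.48 CPM in Ngn3-low cells (-4.13 ± 0.78). The gates did not overlap for either gene on either side.

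On the dorsal side Hoxa2 (-3.18 ± 0.92), Hoxa7 (-3.58 ± 1.08), Hoxb5 (-3.51 ± 1.08), Hoxb8 (-3.55 ± 1.10), Hoxb4, Hoxb6 and Hoxb9 were also lower in Ngn3-high cells. Hoxb7 and Hoxd9 had no read in dorsal Ngn3-high libraries and were at least 12.8-fold and 7.32-fold lower. In dorsal Ngn3-low libraries Hoxb7, for example, had 1.61 and 0.564 CPM. Among ventral cells Hoxb2 (-3.44 ± 0.75), Hoxb4 (-4.58 ± 1.01), Hoxa3 (-2.72 ± 0.69) and Hoxc4 (-3.89 ± 1.15) were lower. Hoxa10, Hoxb5, Hoxb6, Hoxb8, Hoxc5, Hoxa2 and Hoxa7 had no read in ventral Ngn3-high libraries and were at least 11.0-fold, 9.78-fold, 7.97-fold, 7.35-fold, 6.03-fold, 5.89-fold and 4.32-fold lower. Only Hoxb1, Hoxb9 (-2.85 ± 1.24, adjusted p = 0.059) and Hoxd9 of the tested members did not pass on the ventral side.

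Other cell types moved with the gate. The 6 endothelial markers were lower in Ngn3-high cells on both sides, at 5.60 to 10.9 CPM in sum in Ngn3-high and 219 to 726 CPM in Ngn3-low libraries. Of 12 mesenchyme markers 3 were lower on the dorsal side and 6 lower and 1 higher on the ventral side, with sums of 72.5 to 155.4 CPM in Ngn3-high and 226.5 to 1212 CPM in Ngn3-low libraries. Mesothelium markers were lower for 3 of 6 on the dorsal and 4 of 6 on the ventral side. Their part in the Hox values was not tested. Leaving out 1 library at a time gave 5 to 12 calls on the dorsal side (5 without the first Ngn3-high library, 6 without the first Ngn3-low library) and 15 to 19 on the ventral side, and of the dorsal calls Hoxb4 passed in none and Hoxb6 and Hoxb9 in 1 of the 4 fits.

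Gene lists of the pathway were followed beside the members: 9 cofactors (Pbx, Meis and Pknox genes) and 20 upstream or chromatin regulators, of which 18 were tested. Of all genes 61.3% passed between the gates on the dorsal and 61.8% on the ventral side, and the counts of these lists are to be read against that background. Dorsally 4 cofactors were higher in Ngn3-high cells, among them Meis3 (2.28 ± 0.13 on the log2 scale, adjusted p = 1.9e-10) and Meis2 (1.63 ± 0.10), and 2 were lower, Meis1 (-1.38 ± 0.15) and Pbx3 (-0.92 ± 0.11). Ventrally 5 were higher and 2 lower, with Meis3 at 1.97 ± 0.12, Meis2 at 1.56 ± 0.10, Meis1 at -1.28 ± 0.15 and Pbx3 at -0.84 ± 0.11. Of the regulators 4 were higher and 9 lower on the dorsal side. The retinoic acid receptors Rara (-2.24 ± 0.12) and Rarg (-2.20 ± 0.20), the retinaldehyde dehydrogenase Aldh1a1 (-4.04 ± 0.32) and the Polycomb methyltransferase Ezh2 (-1.38 ± 0.09) were lower. Ventrally 5 were higher and 10 lower, with Rara at -2.32 ± 0.12, Ezh2 at -1.28 ± 0.09, Aldh1a3 at 5.82 ± 0.46 and Aldh1a1 at -3.91 ± 0.32. Between the sides at E10.5, 2 of 9 cofactors and 5 of 18 regulators passed, against 24.7% of all genes. Pbx3 was higher (0.58 ± 0.12) and Pknox1 lower (-0.48 ± 0.11) in ventral cells, Rarb (1.66 ± 0.34), Rara and Aldh1a1 were higher and Rarg (-0.80 ± 0.21) and Ring1 lower.

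The third question was the change from E10.5 Pdx1+ cells to E14.5 Ngn3-low cells. On the dorsal side 12 of 21 members were lower at E14.5, against 32.2% of all genes, and Hoxd8 was higher, against 27.6% of all genes (59.8% in either direction). On the ventral side 4 were lower, against 28.1%, and Hoxd8 was again higher, against 27.1% (55.2% in either direction). The median log2 fold change of the members was -1.61 on the dorsal and -0.44 on the ventral side, against -0.04 and 0.01 over all genes. Whether the 2 sides differ in this change was not tested.

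Hoxc4 had 0.372 and 0.313 CPM in E14.5 Ngn3-low and 9.21 and 7.33 CPM in E10.5 libraries of the dorsal side, a log2 fold change of -4.56 ± 0.62 (adjusted p = 1.1e-05). On the ventral side Hoxc4 had 0.971 and 0.296 CPM at E14.5 and 2.77 and 3.57 CPM at E10.5 (-2.33 ± 0.59, adjusted p = 0.0033). The stages were separate on both sides. Hoxd8 went the other way, with 4.77 and 2.07 CPM at E14.5 and 0.643 and 0.402 CPM at E10.5 on the dorsal side (2.70 ± 0.69, adjusted p = 0.0032), and with 5.89 and 1.90 CPM at E14.5 and 1.23 and 0.499 CPM at E10.5 on the ventral side (2.19 ± 0.62, adjusted p = 0.0072).

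Dorsal Hoxa3 had 3.22 and 1.57 CPM at E14.5 and 11.0 and 10.54 CPM at E10.5 (-2.17 ± 0.53). Hoxc5 (-2.86 ± 0.65), Hoxb2, Hoxb9 (-2.82 ± 0.83), Hoxb8 (-1.86 ± 0.67), Hoxa2, Hoxa4, Hoxa7 and Hoxb3 were also lower. Without the first E10.5 library Hoxb9 was at -0.51 (adjusted p = 0.67), Hoxb8 at -0.68 (adjusted p = 0.53), Hoxa2 at -1.01 and Hoxa7 at -1.04, and none of these or of Hoxa4 and Hoxb3 passed. Hoxb3 passed in none of the 4 fits with 1 library left out. Hoxb1, which marks a segment of the hindbrain, had no read at E14.5 and 1.61 and 0.803 CPM at E10.5 on the dorsal side and was at least 12.9-fold lower. Among ventral cells Hoxb1 (-3.91 ± 1.19), Hoxb2 (-1.64 ± 0.48) and Hoxd9 (-3.29 ± 1.12) were lower beside Hoxc4. Hoxd9 had 0.0648 and 0.119 CPM at E14.5 and 1.44 and 0.582 CPM at E10.5 there, with no overlap. These values came from 1 and 2 reads at E14.5 and 14 and 7 reads at E10.5. DESeq2 did not call ventral Hoxd9 (adjusted p = 0.086) or ventral Hoxb1 (adjusted p = 0.12). DESeq2 called 8 on the dorsal and 3 on the ventral side. Ventral Hoxd8 was at 1.17 (adjusted p = 0.16) without the first Ngn3-low library and did not pass without the second E10.5 library. Leaving out 1 library gave 7 to 13 calls on the dorsal side, with 7 without the first E10.5 library, and 2 to 9 on the ventral side, with 9 without the first and 2 without the second Ngn3-low library. Endothelial markers were higher at E14.5 for 6 of 6 on both sides, and cardiac markers lower for 5 of 6 on the dorsal and 6 of 6 on the ventral side. Mesenchyme markers were lower for 6 of 12 on the ventral side, where their sums overlapped (291.2 to 1212 CPM at E14.5, 591 to 975 at E10.5). On the dorsal side the mesenchyme sums were higher at E14.5, at 226.5 to 460.4 CPM, against 94.7 to 115.5 CPM at E10.5. The part of all these markers' cells in the Hox values was not tested.

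The fourth question was the change from E14.5 Ngn3-high cells to E17.5 Ins1+ beta cells. Hoxb2, Hoxb3, Hoxb4 and Hoxb5 of cluster B were higher in Ins1+ cells on both sides. So were Hoxa2, Hoxa5 and Hoxc4 of other clusters, and no tested member was lower. On the dorsal side 8 of 21 were higher, against 24.4% of all genes (47.4% in either direction), and on the ventral side 7 were higher, against 26.6% (51% in either direction). The median log2 fold change was 1.80 on the dorsal and 3.35 on the ventral side, or 1.24 and 1.40 with members at 0 reads set at their bound, against 0.00 and 0.01 over all genes. Both comparisons use the Ngn3-high libraries of the gate comparison above, so that the 2 sets of values are not independent.

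Hoxb3 had 6.01 and 2.49 CPM in dorsal Ins1+ and 0.613 and 0.642 CPM in dorsal Ngn3-high libraries (2.78 ± 0.64, adjusted p = 0.0029). In ventral libraries Hoxb3 had 5.24 and 3.13 CPM in Ins1+ and 0.223 and 0.181 CPM in Ngn3-high cells (4.34 ± 0.78, adjusted p = 3.8e-04). Groups were apart on both sides. In CPM the margin was larger than the spread of the Ins1+ pair on the ventral side alone. Hoxb4, a gene studied for expansion of blood stem cells, had 3.13 and 2.49 CPM in dorsal Ins1+ and 0.327 and 0.183 CPM in dorsal Ngn3-high libraries (3.31 ± 0.76), and 3.16 and 0.834 CPM against 0 and 0.120 CPM on the ventral side (4.78 ± 1.01). Hoxb2 had 1.85 and 1.36 CPM in ventral Ins1+ and 0.149 and 0.120 CPM in ventral Ngn3-high libraries (3.51 ± 0.76), and a log2 fold change of 1.80 ± 0.57 on the dorsal side.

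Hoxa5 was higher in Ins1+ cells on the dorsal (2.00 ± 0.77) and ventral side (2.30 ± 0.84), and so was Hoxc4 (2.60 ± 0.92 and 4.37 ± 1.13). With 1 library left out, dorsal Hoxa5 passed in none of 4 fits, and ventral Hoxa5 was at 0.60 (adjusted p = 0.73) without the first Ins1+ library. Without the first dorsal Ins1+ library Hoxc4 was at 0.91 (adjusted p = 0.66), and Hoxb5, Hoxb6 and Hoxa2, given next, did not pass either. Hoxb5 had a log2 fold change of 3.68 ± 1.10 on the dorsal side and was at least 11.5-fold higher on the ventral side, where Ngn3-high libraries had no read. Hoxa2 had 0.882 and 0.325 CPM in dorsal Ins1+ and 0.0409 and 0.0917 CPM in dorsal Ngn3-high libraries (3.27 ± 0.95), and was at least 2.86-fold higher on the ventral side. Hoxb6 was higher on the dorsal side (2.34 ± 0.89). Leaving out 1 library gave 1 to 7 calls on the dorsal side, with 1 without the first Ins1+ library and 3 and 4 without the first and the second Ngn3-high library, and 5 to 6 on the ventral side. Mesenchyme markers moved with stage: 9 of 12 on the dorsal and 8 of 12 on the ventral side were higher in Ins1+ cells, at 825 to 2815 CPM in sum in Ins1+ and 72.5 to 155.4 CPM in Ngn3-high libraries, and their part was not tested. Of the regulators Cbx2 (-1.26 ± 0.10), Gdf11 (-1.13 ± 0.09) and Ezh2 (-0.96 ± 0.09) were lower and Aldh1a1 (2.11 ± 0.34) was higher in dorsal Ins1+ cells.

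Single cells showed which cells carried Hox reads. Of the 39 members 24 had a read in some cell and 15 had 10 or more reads in some cell. All 31 dorsal Pdx1+ cells at E9.5 had a member at 10 or more reads (exact 95% interval 88.8% to 100%), whereas 7 of 44 ventral cells did (15.9%, 6.64% to 30.1%). The share was 100% in both dorsal sets and 17.9% (5 of 28 cells) and 2 of 16 cells in the 2 ventral sets. It was 5 of the 25 ventral cells that carry the human protocol in their labels and 2 of the other 19. Intervals cover counting error only and take cells as independent, while the samples are the sets. In cells most reads came from paralogues 1 to 4. At E9.5 those had 540 reads in ventral and 4183 in dorsal cells, paralogues 5 to 8 had 46 and 369, and paralogues 9 to 13 had 8 and 6. In ventral Pdx1-low cells paralogues 5 to 8 had a larger part, with 153 reads beside 363 of paralogues 1 to 4. Set 6 held 511 Hox reads of that group, and its 2 cells with a member at 10 reads were the 2 with mesenchyme markers. The larger part was therefore not shown for the other cells of the gate. No cell of any group had a member numbered 9 to 13 at 10 reads. Hoxa9, Hoxa10 and Hoxd8, which passed in bulk comparisons, had no read in any cell. The single cells therefore cannot show which cells carried them.

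At E10.5 the share was 3.39% of 59 ventral and 37.0% of 27 dorsal Pdx1+ cells. It was 2.56% of 39 ventral and 53.6% of 28 dorsal Pdx1-high cells, and 5.13% of 39 ventral and 42.5% of 40 dorsal Pdx1-low cells. It was 0 of 54 Liv2+ cells, a count that leaves room for 5.56%, 1 of 59 Liv2- cells, 0 of 23 liver bud cells, which leaves room for 13.0%, and 0 of 4 liver cells at E15.5, where 1 read of Hoxd11 was the only Hox read. Over all cells of a gate the ventral share lay below the dorsal one. By set the sides at E10.5 were separate in Pdx1-high cells alone, where 1 of 10 cells was positive in 1 ventral set and none in the other 5, while the 6 dorsal sets held 40% to 66.7%. In Pdx1+ cells the ventral sets held 1 of 33, 0 of 22 and 1 of 4 and the dorsal sets 2 of 11, 7 of 10 and 1 of 6 positive cells, which overlapped. In Pdx1-low cells 5 ventral sets held none and 1 held 2 of 12, while 2 dorsal sets held none and the other 4 held 33.3% to 75%, which overlapped as well.

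**Figure D3:**
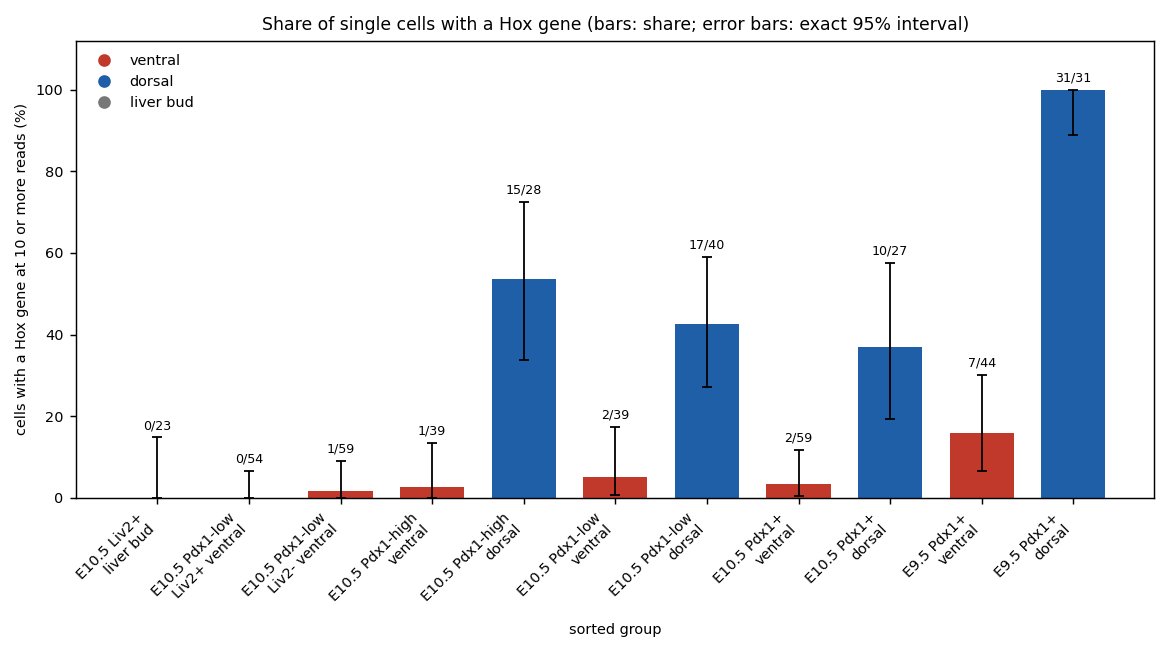
Share of single cells, in percent, with at least 1 Hox gene at 10 or more reads in each group along the x axis, ventral left of dorsal; bars are exact 95% binomial intervals. The dorsal E9.5 group stands at 100%, the dorsal E10.5 groups between 37.0% and 53.6%, and the ventral and liver groups at 15.9% or less.

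A threshold of 1 read gave higher shares and a background. By 1 read, 26.1% of liver bud cells and 33.3% of Liv2+ cells were positive, which is close to the 35.6% of ventral Pdx1+, 28.2% of ventral Pdx1-low and 17.95% of ventral Pdx1-high cells. Ventral E9.5 cells lay higher, at 54.55% (24 of 44). In dorsal groups the share by 1 read was 70.4% of Pdx1+, 62.5% of Pdx1-low and 85.7% of Pdx1-high cells at E10.5, and 100% at E9.5. Median depth per cell lay between 502718 and 1243844 reads in the groups, and after each cell was thinned to 100000 reads the share with 1 read or more at E9.5 was 20.4% ventral and 100% dorsal, and in Pdx1-high cells 5.13% ventral and 60.7% dorsal.

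Hoxc4 led in dorsal cells. At 10 or more reads it was in 5 of 44 ventral (11.4%) and 26 of 31 dorsal cells (83.9%) at E9.5, in 1 of 39 ventral and 12 of 28 dorsal Pdx1-high cells (42.9%), in 2 of 39 ventral and 8 of 40 dorsal Pdx1-low cells, and in 0 of 59 ventral and 6 of 27 dorsal Pdx1+ cells (22.2%). In dorsal Pdx1-low cells Hoxa3 was as frequent as Hoxc4, in 8 of 40 cells.

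Dorsal E9.5 cells carried several members at once. At 10 or more reads Hoxa2 was in 15 of 31 cells, of which 12 also had Hoxc4, and Hoxc5 was in 9 cells, 8 of them with Hoxc4. In all, 16 of 31 cells (51.6%) had 3 or more members, whereas 3 of 44 ventral cells did. Co-detection in cells shares depth and library, and no test was made.

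Per length, levels in the dorsal E9.5 sets were, in falling order, Hoxc4 at 24.8, Hoxa2 at 8.29, Hoxc5 at 3.99 and Hoxb2 at 1.39 RPKM on average over the 2 sets, followed by Hoxb1, Hoxb4 and Hoxa3 at 0.500, 0.434 and 0.403 RPKM. The 2 sets of Hoxc4 were at 22.2 and 27.4 RPKM. Neighbours in the order below Hoxb2 overlapped.

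Summed over members, sets held 13.6 and 7.57 Hox CPM in ventral and 110.5 and 131.0 in dorsal E9.5 cells. In E10.5 Pdx1-high cells the 5 ventral sets held 0, 0.188, 0.451, 0 and 4.31, and the 5 dorsal sets 18.9, 15.6, 45.7, 10.46 and 24.6 CPM. The sides did not overlap in either sort. In Pdx1-low cells 4 ventral sets held 0.146 to 1.27 and the last held 33.4, while the 6 dorsal sets held 12.0, 0, 41.5, 35.7, 2.22 and 22.1, so that the sides overlapped. In Pdx1+ cells the 3 ventral sets held 1.05, 0.415 and 50.6, and the 3 dorsal sets 9.59, 17.53 and 5.72. Cells with mesenchyme markers were in 4 ventral sets. They were 2 of 12 cells in the Pdx1-low set at 33.4, 1 of 4 in the Pdx1+ set at 50.6, 4 of 22 in the Pdx1+ set at 0.415 and 2 of 28 in the E9.5 set at 13.6. In the last 2 of these sets none of the cells with mesenchyme markers had a Hox gene at 10 reads. Without the 9 cells with mesenchyme markers edgeR called 0 of 7 tested members between the sides in Pdx1+ cells (2 at an unadjusted p below 0.05, 0.409% of all genes called), in Pdx1-high cells (6, 0.0115%) and in E9.5 cells (0, 0%).

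**Figure D4:**
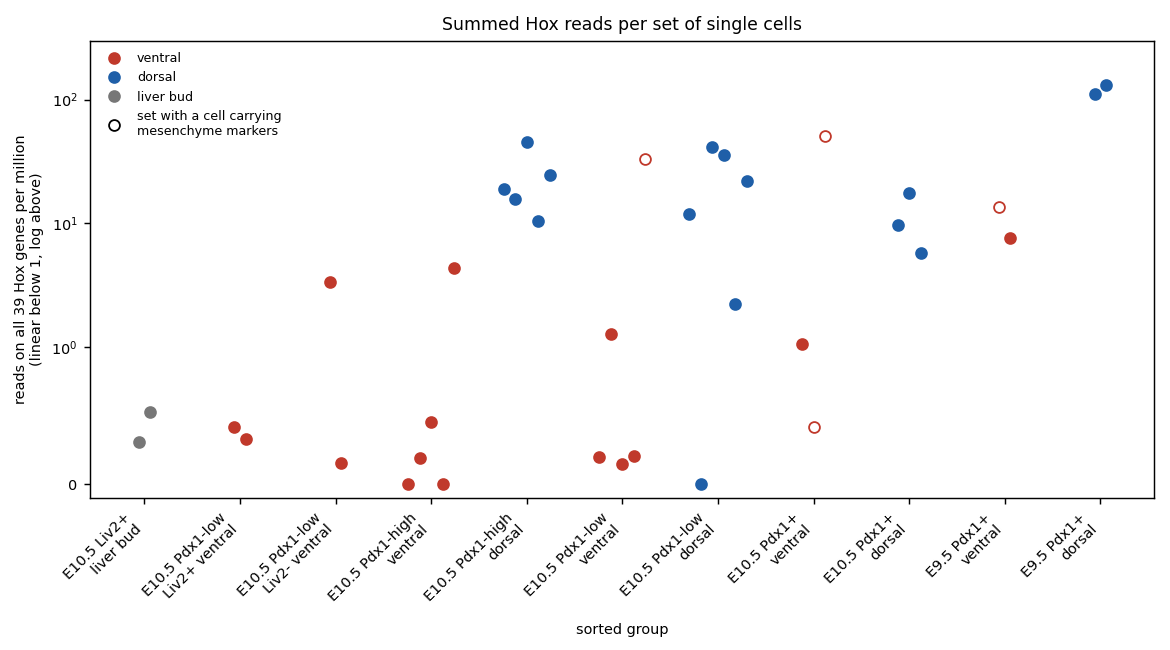
Summed CPM of the 39 Hox genes in each set of cells (1 point per set), by group along the x axis, ventral left of dorsal. Open points are sets that hold a cell with mesenchyme markers; the dorsal E9.5 sets stand highest, at 110.5 and 131.0, and the 4 open points, all ventral, lie at 33.4, 50.6, 0.415 and 13.6, so that they include the 2 highest ventral sets and the lowest Pdx1+ set.

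The set test covered 8 members (among them Hoxa2, Hoxa3, Hoxb1, Hoxb2, Hoxb4, Hoxc4 and Hoxc5) among 17433 genes, since the other 31 had 0 to 55 reads over all cells. edgeR called none of the 8 in any of 12 comparisons, in which at an unadjusted p below 0.05 there were 0 to 6 members. Ventral minus dorsal, the shares of all genes called were 0.402% in Pdx1+, 0.0172% in Pdx1-high, 24.9% in Pdx1-low and 0% in E9.5 cells. DESeq2 left 2 or 3 of the 8 without an adjusted p in each. A p that misses the threshold does not show that the groups were alike.

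In E9.5 cells Hoxc4 had 5.57 and 4.08 CPM in ventral and 64.1 and 47.4 CPM in dorsal sets, a log2 fold change of -3.53 ± 2.52 (adjusted p = 1). Hoxa2 had 0.991 and 0 CPM in ventral and 12.8 and 16.4 CPM in dorsal sets. The sides did not overlap for these genes, nor for Hoxc5, at 1.06 and 0 CPM in ventral and 15.6 and 9.28 CPM in dorsal sets, or Hoxb2, at 1.88 and 0.161 CPM in ventral and 4.93 and 4.27 CPM in dorsal sets. edgeR and DESeq2 called 0 of 8, and 0 were at an unadjusted p below 0.05.

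In Pdx1-high cells edgeR called 0 and DESeq2 0, with 6 of 8 at an unadjusted p below 0.05, all lower in ventral cells (among them Hoxa2, Hoxa3, Hoxb2, Hoxc4 and Hoxc5). Hoxc4 had 0, 0, 0, 0 and 4.14 CPM in the 5 ventral sets and 13.5, 9.36, 34.5, 4.39 and 14.4 CPM in the 5 dorsal sets (-4.10 ± 1.65, adjusted p = 0.38). All dorsal sets lay above all ventral sets. Hoxa3, Hoxb2 and Hoxc5 had no read in ventral sets. Hoxa3 had 0.868, 2.85, 0, 0.399 and 1.49 CPM in the dorsal sets. The mesenchyme markers were low on both sides, with sums of 6.25 to 47.1 CPM in ventral and 0.254 to 51.2 CPM in dorsal sets, and Twist1, Foxf1, Nkx3-2 and Lum at 0 on both.

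In Pdx1+ cells at E10.5 Hoxc4 had no read in the 3 ventral sets and 7.30, 6.95 and 2.48 CPM in the 3 dorsal sets. No bound on the fold is given for sets of cells, since reads are amplified and 1 positive cell can bring many of them. edgeR gave it an unadjusted p of 0.0050 and an adjusted p of 0.27, and DESeq2 called it, as 1 of 8. Hoxa2 ran the other way in 1 set, with 0, 0.0411 and 29.4 CPM in ventral and 0, 1.37 and 1.34 CPM in dorsal sets. The ventral set at 29.4 CPM has 4 cells, of which 1 had mesenchyme markers, 3 Hox members at 10 reads and no epithelial marker at 10 CPM.

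In Pdx1-low cells the sides depended on such cells. Set 6 of the ventral side held 2 cells with mesenchyme markers, with 5 and 9 Hox members at 10 reads and with Pdx1 at 0. With them edgeR called 0 of 8 members, with 2 at an unadjusted p below 0.05, and DESeq2 called 0. Without the 9 cells with mesenchyme markers 6 of 7 tested members were lower in ventral cells (among them Hoxa2, Hoxa3, Hoxb2, Hoxb4 and Hoxc4), against 25.2% of all genes in either direction and 11.6% lower. Without set 6 as a whole 3 were lower (among them Hoxb2 and Hoxc4). Hoxc4 had 6.24, 0, 2.22, 9.76, 0.418 and 5.98 CPM in the 6 dorsal sets, and in the 5 ventral sets 0 except in set 6, at 6.99 CPM. Hoxb2 had 0.337, 0, 2.00, 9.23, 0 and 6.44 CPM in the dorsal sets. All 40 dorsal Pdx1-low cells, and so all 17 with a member at 10 reads, had 4 or more of 6 epithelial markers at 10 CPM. The median Pdx1 level was 0 CPM in the 17 cells and also over all 40 cells of the group.

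**Figure D5:**
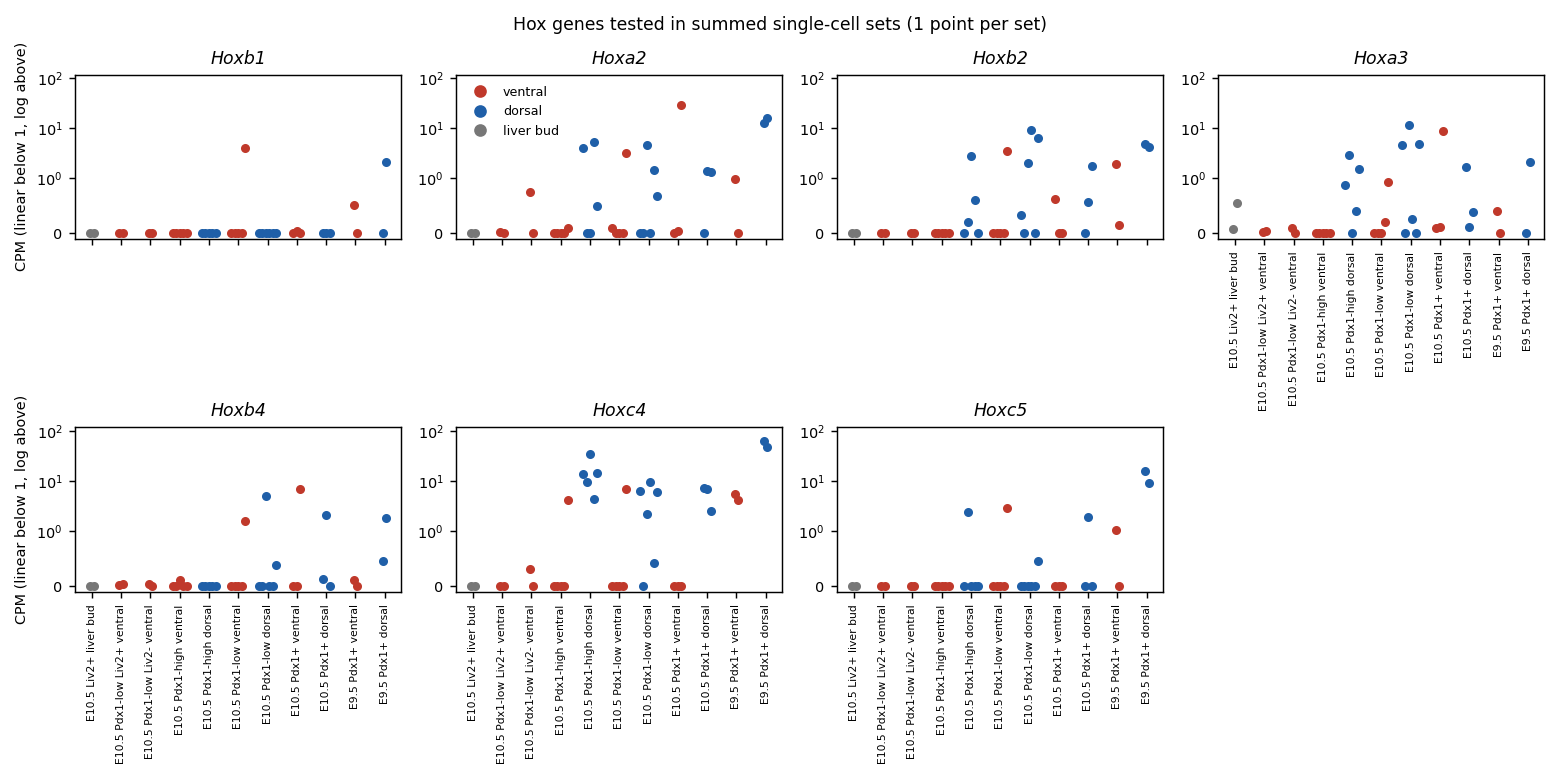
TMM-scaled CPM of tested Hox genes in each set of cells (1 point per set), by group along the x axis, ventral left of dorsal. Hoxc4 is highest in the dorsal E9.5 sets, and in the ventral Pdx1-low group 1 set carries nearly all reads of these genes.

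Between stages, edgeR called 0 of 8 in Pdx1+ cells of E10.5 against E9.5 on either side, with 2 at an unadjusted p below 0.05 on the ventral side (among them Hoxc4) and 1 on the dorsal side. Of all genes 0% passed on the ventral and 0.275% on the dorsal side. Hoxc4 had no read in the ventral E10.5 Pdx1+ sets and 5.57 and 4.08 CPM in the ventral E9.5 sets, where 5 of 44 cells carried it at 10 reads. DESeq2 called 1 member on the ventral side, Hoxc4, and 0 on the dorsal side. Dorsal Hoxc4 had 7.30, 6.95 and 2.48 CPM at E10.5 and 64.1 and 47.4 CPM at E9.5 (-3.32 ± 2.14, adjusted p = 0.69). The E10.5 sets lay below both E9.5 sets.

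Between the gates at E10.5, edgeR called 0 of 8 for Pdx1-high minus Pdx1-low cells on the dorsal side (24.1% of all genes passed, 1 member at an unadjusted p below 0.05, 0 by DESeq2) and 0 on the ventral side (0.964%, 5 members, 0 by DESeq2). Without the cells with mesenchyme markers Hoxb4 was lower in dorsal Pdx1-high cells, against 23.4% of all genes in either direction and 10.6% lower. None of the cells left out was in these dorsal sets, so the counts compared were the same. Only the filter, the scaling and the estimate of the spread, which are shared with other groups, could change. Hoxb4 had no read in the dorsal Pdx1-high sets, while the dorsal Pdx1-low sets had 4.89 CPM in set 3 and 0.379 CPM in set 6, so that the call rests on 1 set. The difference between the gates in the ventral-to-dorsal fold change gave 0 calls, with 1 at an unadjusted p below 0.05 and 0 by DESeq2, against 11.2% of all genes. Without set 6 of the ventral Pdx1-high cells it gave 1 call, Hoxc4.

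Around the liver bud Hox reads were few. Liv2+ sets of the ventral Pdx1-low gate held 0.418 and 0.330 and Liv2- sets 3.38 and 0.150 Hox CPM, and the liver bud sets 0.304 and 0.526. edgeR called 0 of 8 for Liv2+ minus Liv2- cells (0 at an unadjusted p below 0.05, 0% of all genes), for the liver bud minus ventral Liv2+ cells (0, 0.585%) and for the liver bud minus ventral Pdx1-high cells (1, 5.53%). DESeq2 called Hoxc4 in the first and the last, and 0 in the second. Each of these calls rests on 1 cell, since Hoxc4 had 13 reads in 1 of 59 Liv2- cells and 46 reads in 1 of 39 ventral Pdx1-high cells, and none in Liv2+ or liver bud cells.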

How the data were processed

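Bulk libraries (poly(A) RNA of sorted cells, directional kit) and Smart-seq2 single cells were deposited as read counts per gene, which the authors made with TopHat2 2.1.0, Bowtie2 and HTSeq 0.6.0 on GRCm38, per the submitters' processing notes. Bulk RPKM values, pooled over the 2 libraries of a group, were deposited by the authors; they equal RPKM from the summed counts within 0.0051 for all values. Counts were scaled by TMM, filtered on low counts by group and fitted with edgeR 4.0.16 (limma 3.58.1, R 4.3.3) over all groups of a data type. Cells were summed by the set number of the label (sets of 3 or more cells), and 92 spike-ins were left out. p-values are Benjamini-Hochberg adjusted over all genes tested, with a threshold of 0.05. An SE is the log2 fold change over the square root of F. A fold against a group with no read is a bound at 3 reads over that group, given for bulk libraries alone and covering counting error only, and per-library CPM are TMM-scaled. Summaries used Python 3.11.15, pandas 2.3.3, numpy 2.4.6 and scipy 1.17.1, and coordinates and transcripts are those of GENCODE M21. The tests were checked on simulated data. Results of some members are not reported here, while counts over members include all of them.

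The members and gene lists were chosen with earlier results of these data known. Members are named with values if they reach 1 pooled RPKM in a bulk group or pass a comparison, with their neighbours, and at most 8 per direction and comparison get a fold change with SE; Hoxb13 and Hoxa13 were added after their values were seen. The results were repeated with DESeq2 1.42.0, under RLE scaling, without the filter, with a block for the replicate number, with larger sets (5 cells at least), with every cell thinned to 100000 reads, leaving out cells with mesenchyme markers, and leaving out each library or set in turn. Replicates differed by more than counting error in each bulk group (chi-square per gene 2.49 to 29.1). Depth is 8779418 to 24551520 reads per bulk library.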

Additional observations from a re-analysis of the deposited data

Results flagged for a closer look

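In 25 combinations of a Hox gene, or the sum of all, with a group of 5 or 6 sets of cells, 17 had a set that stood far from the others. Chance flags about 1 in 20 groups of evenly spread values, a rate that does not hold here, where most sets are at 0 and any set with reads stands apart. In ventral Pdx1-low cells set 6 stood apart for Hoxa2 at 3.12, Hoxa3 at 0.936, Hoxb1 at 3.93, Hoxb2 at 3.43, Hoxb4 at 1.56, Hoxc4 at 6.99 and Hoxc5 at 2.93 CPM, and for the summed Hox reads at 33.4 CPM. This set holds 12 cells, 2 of them with mesenchyme markers. In ventral Pdx1-high cells set 6 stood apart for Hoxc4 at 4.14 CPM, for the summed reads at 4.31 CPM and for Hoxa2 at 0.0900 CPM, and set 4 for Hoxb4 at 0.105 CPM, the last 2 from 1 read each. In that group 1 of 39 cells had Hoxc4 at 10 or more reads. In dorsal Pdx1-high cells set 4 stood apart for Hoxb2 at 2.79 CPM and set 2 for Hoxc5 at 2.44 CPM. In dorsal Pdx1-low cells set 3 stood apart for Hoxa2 at 4.67 and Hoxb4 at 4.89 CPM, and set 6 for Hoxc5 at 0.463 CPM.

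Hoxb13, which was too low for the main test, had 55 reads in the ventral Ngn3-low libraries and 0 in all other bulk groups, above the limit that a count of 0 allows.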

How the results depend on the processing

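The 69 calls of members over the comparisons gave 275 values under other settings, of which 261 kept the call, 14 lost it and 0 reversed the sign. With 1 library left out they gave 276 values, of which 191 kept the call, 85 lost it and 0 reversed the sign. Counts of called members moved more. DESeq2 called 1 between the sides at E10.5, 8 and 3 between Ngn3-low and E10.5 cells on the dorsal and ventral side, and 1 of the set-tested members, Hoxc4, in each of Pdx1+ ventral minus dorsal, ventral E10.5 minus E9.5, Liv2+ minus Liv2- and liver bud minus ventral Pdx1-high cells. With no filter the counts were 1 between the sides in Ngn3-low cells (Hoxb13), 12 between ventral Ins1+ and Ngn3-high cells and 1 for the change of the side difference (Hoxb9). With 1 library or set left out they ranged from 2 to 5 (sides at E10.5), 5 to 12 and 15 to 19 (Ngn3-high minus Ngn3-low, dorsal and ventral), 7 to 13 and 2 to 9 (Ngn3-low minus E10.5), 1 to 7 and 5 to 6 (Ins1+ minus Ngn3-high), 0 to 3 (sides in Pdx1-low sets) and 0 to 1 (side difference between the gates, Hoxc4 without ventral Pdx1-high set 6). Without cells with mesenchyme markers they were 6 for the sides in Pdx1-low cells and 1 for dorsal Pdx1-high minus Pdx1-low cells. None of the cells left out was in the dorsal sets of the latter comparison. The cause was not tested.

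Replicate numbers were not taken to pair the samples, since not every pair of same-numbered samples correlated over 0.1: same-numbered bulk libraries had deviations correlated between -0.0686 and 0.482 (median 0.118, 32 of 56 pairs over 0.1), and sets between -0.084 and 0.133. This does not exclude a source of spread shared by same-numbered libraries. Summed Hox CPM were higher in the first than in the second library of every bulk group except dorsal Ngn3-high cells (4.28 and 4.59). With a replicate block 7 members (5 without) were called between the sides at E10.5, 7 (5) between ventral Ngn3-low and E10.5 cells, 10 (7) between ventral Ins1+ and Ngn3-high cells and 1 (0), Hoxc4, between the sides in Pdx1-low sets. Under RLE scaling the median log2 fold change of all genes in Pdx1-low ventral minus dorsal sets was -0.11, against 0 under TMM, and 0 members were called there under either.

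Shares of cells with a Hox read depend on the threshold. At 10 reads, and at 1 read after each cell was thinned to 100000 reads, so that both depth and threshold differ, they were 15.9% and 20.4% in ventral E9.5, 3.39% and 8.47% in ventral Pdx1+, 37.0% and 48.1% in dorsal Pdx1+, 2.56% and 5.13% in ventral Pdx1-high, 53.6% and 60.7% in dorsal Pdx1-high, 5.13% and 5.13% in ventral Pdx1-low, 42.5% and 42.5% in dorsal Pdx1-low, 0% and 7.41% in Liv2+, 1.69% and 8.47% in Liv2-, 0% and 8.70% in liver bud, and 0% and 0% in E15.5 liver cells. Most members lie at a few reads per library, so fold changes have wide errors, and 18 members were too low for a bulk test.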
